A study of Homo sapiens with 8 samples.

Results

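bktRNA105 and bktRNA23 are small human RNAs from different chromosomes that share a stretch of identical letters. They were taken by name from the deposited table of reactivity scores and make up 2 of its 14 RNAs and 248 of its 1279 nucleotides. All 8 libraries came from HEK293T, a human embryonic kidney line, that stably overexpressed a FLAG-tagged form of the 15.5K protein (SNU13). RNA-protein complexes were pulled down with an anti-FLAG antibody and treated on the beads with NAI-N3 (4 libraries, numbered 1 to 4) or with DMSO, the solvent control (4 libraries, numbered 1 to 4). Nothing in the labels ties a number to a culture of its own, and since the tagged protein was overexpressed in every library, none shows the RNAs without it. The authors deposited 1 score per nucleotide for the whole series, so no value of a single library entered the results, the spread between libraries and the depth behind a score are unknown, and NAI-N3 was not compared with DMSO. Every SD below is over nucleotides of an RNA, which are not replicates, and all comparisons are descriptions without a test.

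SNU13 binds the kink-turn, a sharp bend in a double-stranded RNA that forms where box C (RUGAUGA, with R for A or G) meets box D (CUGA). The bend brings sheared G and A pairs together beside an internal bulge, and it is best known from the box C/D small nucleolar RNAs, which guide ribose methylation. NAI-N3 is a SHAPE reagent: it acylates the 2′-hydroxyl of flexible nucleotides, so a paired or tightly bound nucleotide usually scores low and a nucleotide in an open loop scores high. Reverse transcription reads the adducts as mutations. How the authors assigned reads that fit both RNAs is not given in the sources used here.

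bktRNA105 was 204 nt long (hg38, chr6:149599700-149599903, minus strand). It lay within KATNA1, the gene of the p60 subunit of katanin, an enzyme that severs microtubules, on the strand of the gene and 4827 nt from the gene's 3′ boundary. bktRNA23 was 44 nt long (hg38, chr19:6602539-6602582, plus strand) and overlapped no RefSeq gene span. Its nearest listed neighbours were the pseudogene RPL7P50, 8402 nt below, and TNFSF14, a gene of the tumour necrosis factor family, 58671 nt above. Whether the KATNA1 position is exonic or intronic was not analysed here.

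The shared stretch was 32 nt long, nt 152 to 183 of bktRNA105 and nt 6 to 37 of bktRNA23, but the likeness did not end there. All 44 nt of bktRNA23 aligned with nt 147 to 192 of bktRNA105, and 43 of them were identical. The exceptions were the substitution C5U, counted from the 5′ end of bktRNA23 with its base first, and 2 nt of bktRNA105 (nt 184 and 185) that bktRNA23 lacks. bktRNA23 thus corresponded as a whole to a segment near the 3′ end of bktRNA105, with 146 nt before it and 12 nt after it. Neither RNA shared more than 9 nt in a row with any of the other 12 RNAs of the table.

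Both differences fell at the boxes. C5U replaces the first letter of box D of bktRNA23, so the matching place in bktRNA105 (nt 151 to 154) reads UUGA and not CUGA. Box D was sought in the first 20 nt only, so nt 151 had no part in its choice in bktRNA105. The CUGA at nt 5 to 8 was taken there. Another CUGA of bktRNA105, at nt 19 to 22, ends outside that window. Box C began at nt 37 in bktRNA23 and at nt 185, the second of the 2 extra letters, in bktRNA105. By this rule, boxes D and C framed the shared hairpin closely in bktRNA23 and enclosed nearly the whole RNA in bktRNA105.

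The highest shared score of each RNA lay in the middle of the stretch, but the profiles differed. bktRNA105 had a pair of sharp maxima in the hairpin loop, and its next 3 highest shared scores were at the edges, at nt 152, 153 and 183. bktRNA23 had a broad low plateau that went on past the loop, and its 5 highest shared scores all lay within it. Both were near 0 in the 3′ strand of the outer stem. Over the 32 shared nucleotides the mean score was 0.00649 ± 0.0122 (SD, 32 nt) in bktRNA105 and 0.00492 ± 0.00753 (SD, 32 nt) in bktRNA23. The mean difference of 0.00157 (standard error 0.00253 over nucleotides) changed sign with the scale. After division by the mean of the own RNA, the stretch stood at 0.801 in bktRNA105 and 0.990 in bktRNA23. bktRNA105 was higher at 12 nucleotides and bktRNA23 at 17, and both were listed at 0 at the other 3.

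Across the 32 nucleotides the scores of the RNAs correlated with Pearson r = 0.401 and Spearman rho = 0.351. These describe points that share sequence and libraries, and the profiles may rest in part on the same reads, since a read within the identical letters fits both RNAs. How far that goes was not tested, and it bears on the differences as well as the likeness. Over the 13 nucleotides between the strands of the outer stem, where most of the signal lies, r was 0.236. Over all 44 aligned nucleotides r was 0.161, lower because the highest score of bktRNA23, at nt 3, stood against a score just below 0. Of the 5 highest shared nucleotides of each RNA, 1 was common to both, the one that opens the hairpin loop. For comparison, bktRNA29 and bktRNA385, a pair of RNAs with 53 of 54 letters in common, had r = 0.895 and rho = 0.544 over the identical letters, with 3 of their 5 highest nucleotides in common. Of those letters, 18 were listed at 0 in both, and the highest scores were 0.0684 in bktRNA29 and 0.130 in bktRNA385. How far such values carry r was not tested.

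**Figure D1:**
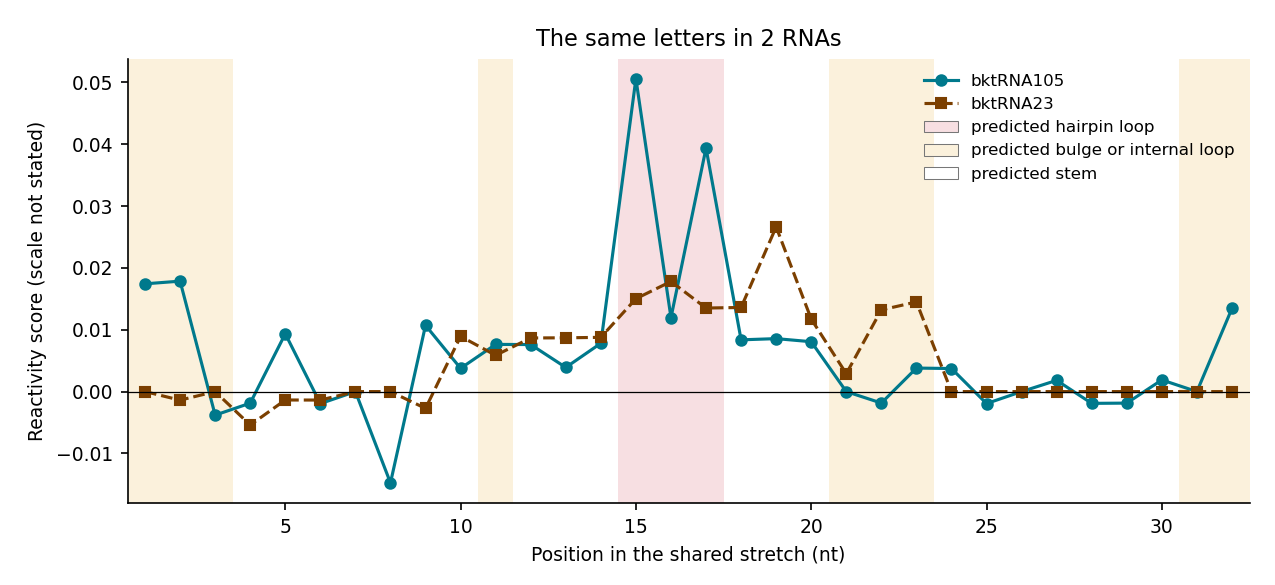
Reactivity score (y axis, scale not stated) against position in the 32-nt shared stretch (x axis) for bktRNA105 (circles, solid line) and bktRNA23 (squares, dashed line), 1 deposited score per point, with the predicted element shaded. bktRNA105 peaks at 0.0506 and 0.0394 in the hairpin loop, bktRNA23 peaks at 0.0266 just after it, and bktRNA23 is listed at 0 over its last 9 positions.

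The minimum free energy structure, predicted from sequence alone at 37 °C, placed the shared stretch in the same hairpin in both RNAs. The hairpin covers nt 155 to 181 of bktRNA105 and nt 9 to 35 of bktRNA23. An outer stem of 7 pairs and an inner stem of 3 pairs are set apart by 1 bulged nucleotide on the 5′ side and 3 on the 3′ side, and the loop has 3 nucleotides. All 32 nucleotides fell in the same class of element in both RNAs, and folding the 32 nt by themselves gave the same hairpin. The confidence of the prediction was not the same. Mean pair probability over the 10 pairs was 0.910 in bktRNA23 and 0.470 in bktRNA105. The same class could also hide unlike probabilities of being unpaired. At U152 and G153 these were 0.264 and 0.329 in bktRNA105, and 0.955 and 0.978 at the matching letters of bktRNA23. In the inner 3′ strand they ran from 0.584 to 0.664 in bktRNA105 and from 0.243 to 0.388 in bktRNA23.

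Within the shared stretch, the widest gaps between the RNAs at single nucleotides were in the hairpin loop, on the deposited scale. In bktRNA105 the loop nucleotides scored 0.0506, 0.0120 and 0.0394, from 5′ to 3′. In bktRNA23 the same nucleotides scored 0.0150, 0.0178 and 0.0135. The loop mean was thus 0.0340 in bktRNA105 and 0.0154 in bktRNA23, a ratio of 2.20, carried by the outer nucleotides of the loop, while the middle one was a little higher in bktRNA23. As a scale for error, the most negative score was -0.0222 in bktRNA105 and -0.00541 in bktRNA23. These outer nucleotides of the loop were the 2 shared nucleotides at which the RNAs differed by more than 0.0222.

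After the loop the order turned. The inner 3′ strand averaged 0.0173 in bktRNA23, with nt 24 at 0.0266, and 0.00833 in bktRNA105. The 3-nt bulge averaged 0.0102 in bktRNA23 and 0.000650 in bktRNA105. Which part differed most depended on the scale. After division by the mean of the own RNA, the loop stood at 4.19 in bktRNA105 and 3.10 in bktRNA23, the inner 3′ strand at 1.03 and 3.48, and the bulge at 0.0802 and 2.05. In bktRNA23 every nucleotide from nt 15 to nt 28 was above 0 (mean 0.0121 ± 0.00576, SD, 14 nt, lowest 0.00290). The matching nt 161 to 174 of bktRNA105 had a like mean of 0.0114 with a wider spread (SD 0.0148, 14 nt) and reached -0.00185 at its lowest. The single bulged nucleotide before the inner stem was close in both, at 0.00763 in bktRNA105 and 0.00587 in bktRNA23.

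The outer stem had the lowest mean of the parts of the hairpin, 0.000499 in bktRNA105 and -0.000137 in bktRNA23. In bktRNA105 the 3-nt bulge was about as low, at 0.000650. The 5′ strand of the stem averaged 0.000750 in bktRNA105 and -0.000274 in bktRNA23, and its 3′ strand averaged 0.000248 and 0. In bktRNA23 the zeros continued past the stem: nt 29 to 41, 13 nucleotides in a row that include the first 5 letters of box C, were all listed at exactly 0, which may mean no reactivity or no estimate. In bktRNA105 the 3′ strand held small scores on both sides of 0, from -0.00193 to 0.00373. The lowest shared score was -0.0148 at nt 159, in the 5′ strand of bktRNA105, where bktRNA23 was listed at 0.

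At the edges of the stretch bktRNA105 was the more reactive. Its first letters, U152 and G153, scored 0.0174 and 0.0179. In bktRNA23, where the same letters are the U and G of box D, they scored 0 and -0.00138. The last shared letter, an A, scored 0.0134 in bktRNA105. In bktRNA23 that A is the first letter of box C and was listed at 0. These 3 letters, placed in a box in bktRNA23 but not in bktRNA105, were thus lower in bktRNA23. All differed by less than the 0.0222 above. For the U and G, this placing rests on the search window. In bktRNA105 they are part of UUGA, which meets the mismatch limit for box D but lies outside that window. Whether UUGA serves as a box was not tested. The last of the 3 rests on the alignment: in the other alignment of equal score, the first letter of box C of bktRNA23 faces A185, the first letter of box C of bktRNA105, which scored -0.00368. At the next letter, the A of box D in bktRNA23, the order was opposite, with -0.00380 in bktRNA105 and 0 in bktRNA23.

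The boxes themselves were low in both RNAs, and so was much of the sequence beside them. In bktRNA23 box D scored 0.00292 at the C and 0 at the U, followed by a G at -0.00138 and an A at 0. The mean was 0.000386 (4 nt) against 0.00653 ± 0.0116 (SD, 33 nt) outside both boxes. Box C of bktRNA23 averaged 0.000249, with 6 of its 7 letters listed at 0. In bktRNA105, box D was listed at 0 at its first 3 letters and scored 0.00539 at the A. Box C of bktRNA105 ran from -0.00368 at its first A to 0.00772 at its G187, with a mean of 0.00115 against 0.00850 ± 0.0152 (SD, 193 nt) outside the boxes. No letter of the boxes as placed here was above 0.01, a level passed by 23.8% of all nucleotides in the table. Many other nucleotides of these RNAs were as low, including 50% of bktRNA23 listed at exactly 0. In bktRNA105, nt 1 to 16, which include box D, averaged 0.000120. Its nt 192 to 204, just after box C, averaged -0.00145. In bktRNA23, 15 of the 16 nucleotides from nt 29 to nt 44, which include box C, were listed at 0. Near its box D, nt 3 was high, at 0.0567. Whether SNU13 shields the boxes was not tested. The CUGA of bktRNA105 at nt 19 to 22, which the search window left out, was not low throughout. Its letters scored 0.00353, 0.0141, 0.00360 and 0.0526.

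The highest score of bktRNA23 was not in the shared stretch. The A at nt 3, directly after the first pair of nucleotides, scored 0.0567, and the next highest nucleotide of the RNA had 0.0266. The matching A149 of bktRNA105 scored -0.00183, the widest gap of all aligned nucleotides (-0.0585, bktRNA105 minus bktRNA23). Its neighbours went the other way, with U147 and C148 of bktRNA105 at 0.0207 and 0.0138 and the matching nt 1 and 2 of bktRNA23 listed at 0. The first 2 and last 2 nucleotides were listed at 0 in both RNAs.

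Outside the shared stretch, bktRNA105 was most reactive between nt 36 and nt 67, where 20 of 32 nucleotides were above 0.01 and the mean was 0.0204, and it was quiet at both ends. Its mean was 0.00810 ± 0.0149 (SD, 204 nt), rank 4 of the 14 RNAs from the top, and 29.9% of its nucleotides were above 0.01, rank 2 of the 14. bktRNA23 had rank 10 by mean (0.00498 ± 0.0104, SD, 44 nt), with 20.5% above 0.01. In bktRNA105 the 151 nt before the shared stretch averaged 0.00964, and the 21 nt after it averaged -0.000516, with 13 of them at 0 and 3 above 0. The first 16 nt averaged 0.000120, with none above 0.00539.

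**Figure D2:**
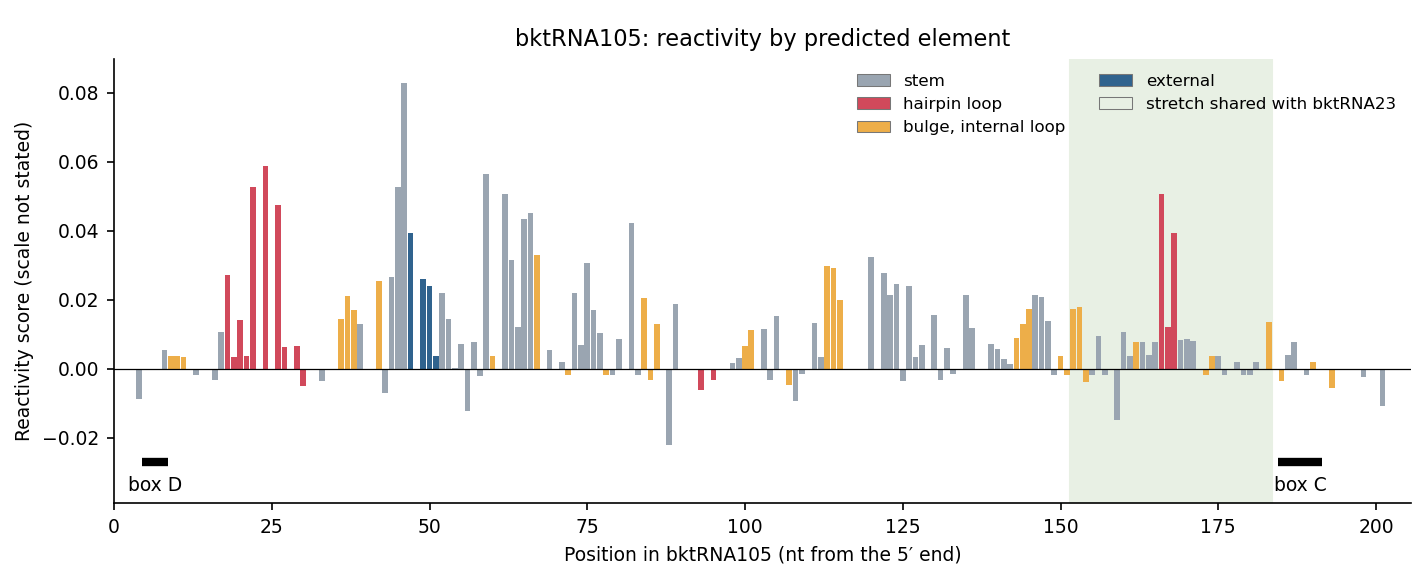
Reactivity score (y axis, scale not stated) of each of the 204 nucleotides of bktRNA105 (x axis), coloured by its predicted element at 37 °C, with the shared stretch shaded and the boxes underlined. The highest bars, up to 0.0830, stand between nt 18 and nt 67 and at the hairpin loop of the shared stretch, and both ends lie near 0.

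At 37 °C the predicted structure of bktRNA105 (-67.5 kcal/mol) had 3 domains in a row. A 5′ domain covered nt 1 to 46, a long central hairpin nt 52 to 134, and the 3′ domain with the shared hairpin nt 135 to 202. The mean score was 0.0102 ± 0.0196 (SD, 46 nt) in the first, 0.00901 ± 0.0149 (SD, 83 nt) in the central one and 0.00503 ± 0.0101 (SD, 68 nt) in the last. The linker at nt 47 to 51 averaged 0.0185 ± 0.0164 (SD, 5 nt).

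Each domain ended in 1 hairpin loop, and the scores of the 3 loops were unlike. Those outside the shared stretch are shown with their closing stems, loops in capitals.
5′ loop, nt 13 to 35, chr6:149599869-149599891, minus strand: ccaggUCUGAAUAAAACCccugg
central loop, nt 88 to 99, chr6:149599805-149599816, minus strand: gccCGGCAUggu
The 3′ loop, shared with bktRNA23, had the highest mean, 0.0340. The 13-nt 5′ loop followed with 0.0166 ± 0.0224 (SD), and the central loop averaged -0.00155 with no nucleotide above 0. Among the 24 predicted hairpin loops of the 14 RNAs these means had ranks 5, 13 and 24 from the top, and the loop of bktRNA23 had rank 14.

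Within the 5′ loop, high and low nucleotides alternated. A22 scored 0.0526, U24 0.0587 and A26 0.0476, while A23 and A25 between them were listed at 0. U18 at the 5′ edge reached 0.0272, and the last 3 nucleotides averaged 0.000463. Its closing stem, CCAGG with CCUGG, had the lowest mean of the 13 helices, 0.000206 over 10 nt. The central loop sat in a quiet stretch, nt 87 to 98, with a mean of -0.000922 and 1 nucleotide above 0.01. The G at nt 88, in the first pair of its stem, had the most negative score of the RNA, -0.0222.

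The most reactive part of bktRNA105 did not follow the predicted pairs. The highest score was 0.0830 at A46, which the prediction pairs with nt 1, and its neighbour U45 reached 0.0526. The 4-pair helix that holds both had a mean pair probability of 0.198, and its other strand, nt 1 to 4, had no score above 0. Together with the linker, the letters GUAAAGUUAG at nt 44 to 53 averaged 0.0291 ± 0.0244 (SD, 10 nt). Next came the helix of GAAGU (nt 62 to 66) with ACUUU (nt 122 to 126). Its mean of 0.0277 was the highest of all 13 helices, although its mean pair probability of 0.895 was also the highest. G62 scored 0.0506, U66 0.0451 and G65 0.0435, and on the other strand A122 reached 0.0278. The single A67 beside it scored 0.0330, and U59, the last pair of the preceding helix, 0.0565.

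Further into the central hairpin the scores were lower. The helix of AUAGG with CCUGU averaged 0.0173 on its 5′ strand and 0.00115 on its 3′ strand. The helix of AUGAG with CUCAU averaged 0.00949 and 0.00473, with A82 at 0.0424. Of the single unpaired nucleotides that interrupt these helices, A72, A78 and G107 were all below 0 (-0.00175, -0.00175 and -0.00468). The internal loop strand AAUCC at nt 113 to 117 split into 3 reactive nucleotides, A113, A114 and U115 at 0.0297, 0.0291 and 0.0200, and 2 C at or near 0. In the 3′ domain the internal loop CAG at nt 143 to 145 averaged 0.0131, and the reactive run continued through U147 and C148 into a predicted stem.

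Over the whole of bktRNA105 the separation of predicted unpaired from paired nucleotides was small. The mean was 0.00939 ± 0.0148 (SD, 78 nt) unpaired and 0.00731 ± 0.0149 (SD, 126 nt) paired, and of its 8 highest nucleotides 4 were in stems and 4 in hairpin loops. The difference of 0.00208 had rank 10 of the 14 RNAs, whose median was 0.00546. bktRNA23 had rank 12, with 0.00509 ± 0.00702 (SD, 16 nt) unpaired and 0.00491 ± 0.0121 (SD, 28 nt) paired. Its paired mean includes its highest score, 0.0567 at nt 3, which is predicted to pair with nt 41, and the median was 0 for both classes. Across the 13 helices of bktRNA105 the mean score did not fall with mean pair probability (Spearman rho = 0.121, a description over helices of 1 RNA).

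**Figure D3:**
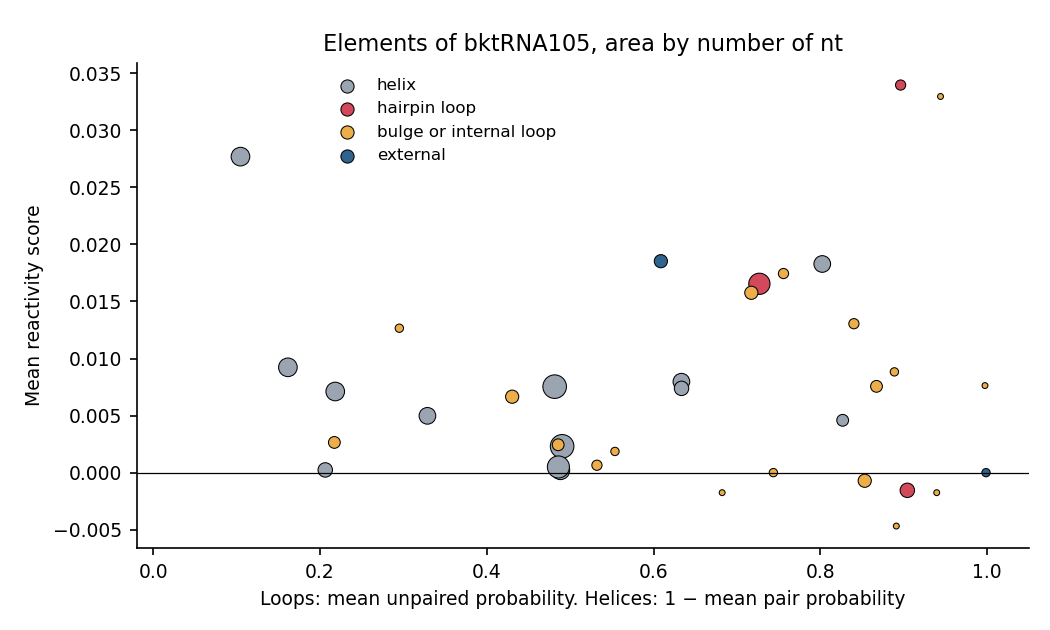
Mean reactivity score (y axis) of each predicted helix and loop of bktRNA105 against how open the prediction is there (x axis, 1 minus mean pair probability for the 13 helices, mean unpaired probability for loops), with point area by number of nucleotides. The helix at a mean pair probability of 0.895 has the highest helix mean, 0.0277, and hairpin loops span from -0.00155 to 0.0340 at similar openness.

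A had the highest mean score in both RNAs, and the order of the other bases differed. In bktRNA105, A averaged 0.0137 ± 0.0191 (SD, 49 nt), U 0.00927 ± 0.0165 (47 nt), G 0.00666 ± 0.0117 (61 nt) and C 0.00294 ± 0.00895 (47 nt). Predicted pairing did not separate A, with 0.0162 in stems (20 nt) and 0.0121 unpaired (29 nt). For C the means were 0.00219 in stems and 0.00454 unpaired, and the single C above 0.05 was nt 166 of the shared loop. Within stems, nucleotides of G-C pairs averaged 0.00387 (64 nt), of A-U pairs 0.0104 (40 nt) and of G-U pairs 0.0116 (22 nt). In bktRNA23, A again had the highest mean, 0.00966 (12 nt), but U the lowest, 0.00201 (8 nt). That A mean includes nt 3, at 0.0567, and 7 of the 12 A were listed at 0. The median was 0 for every base of bktRNA23. These means are descriptions over nucleotides of 1 RNA each.

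In the predictions, the shared stretch of bktRNA105 had a rival partner that bktRNA23 lacks. The 3′ strand of the outer stem (nt 175 to 181) can pair with the shared 5′ strand, or with nt 11 to 17 near the 5′ end of the RNA, just past box D. At 37 °C the mean pair probability was 0.514 for the local stem and 0.484 for the distant one, and with both boxes held unpaired it was 0.234 and 0.765. At 25 °C the distant pairing won (0.927 against 0.0727). The prediction at 25 °C (-86.5 kcal/mol) then joined the ends of bktRNA105 into a long stem, paired 25 of the 32 shared nucleotides outside the stretch, and kept 22 of the 63 pairs predicted at 37 °C, all of them in the central hairpin. bktRNA23 had the same predicted structure at both temperatures. The temperature of the NAI-N3 treatment is not given in the sources used here.

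The scores were low on the strands of both pairings: 0.000248 on average at nt 175 to 181, 0.00128 at nt 11 to 17 and 0.000750 at the shared 5′ strand. At 25 °C the shared 5′ strand has partners of its own between nt 31 and nt 38, and these were not all low. Of them, nt 31 to 34 were at or below 0, while A36 and U38, unpaired at 37 °C, scored 0.0143 and 0.0169. A low score does not tell which partner a nucleotide has. The folds place the loop nucleotides 166 and 168 differently. At 37 °C both are in the hairpin loop, and at 25 °C nt 166 is in an internal loop of the long stem and nt 168 is paired with U24, itself the second highest nucleotide of the RNA. Unpaired minus paired was 0.00133 for the 25 °C structure, 0.00208 for the 37 °C structure, 0.00425 with boxes held unpaired and 0.00428 for the centroid structure, which keeps only well supported pairs. In the centroid structure 7 of the 8 highest nucleotides were unpaired, A46, U45 and U59 among them, and G62 stayed in a stem. That structure leaves 110 of all 204 nucleotides unpaired. The 37 °C structure leaves 78 unpaired, and there the count was 4 of 8. The structures were compared by these values only, without a test.

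**Figure D4:**
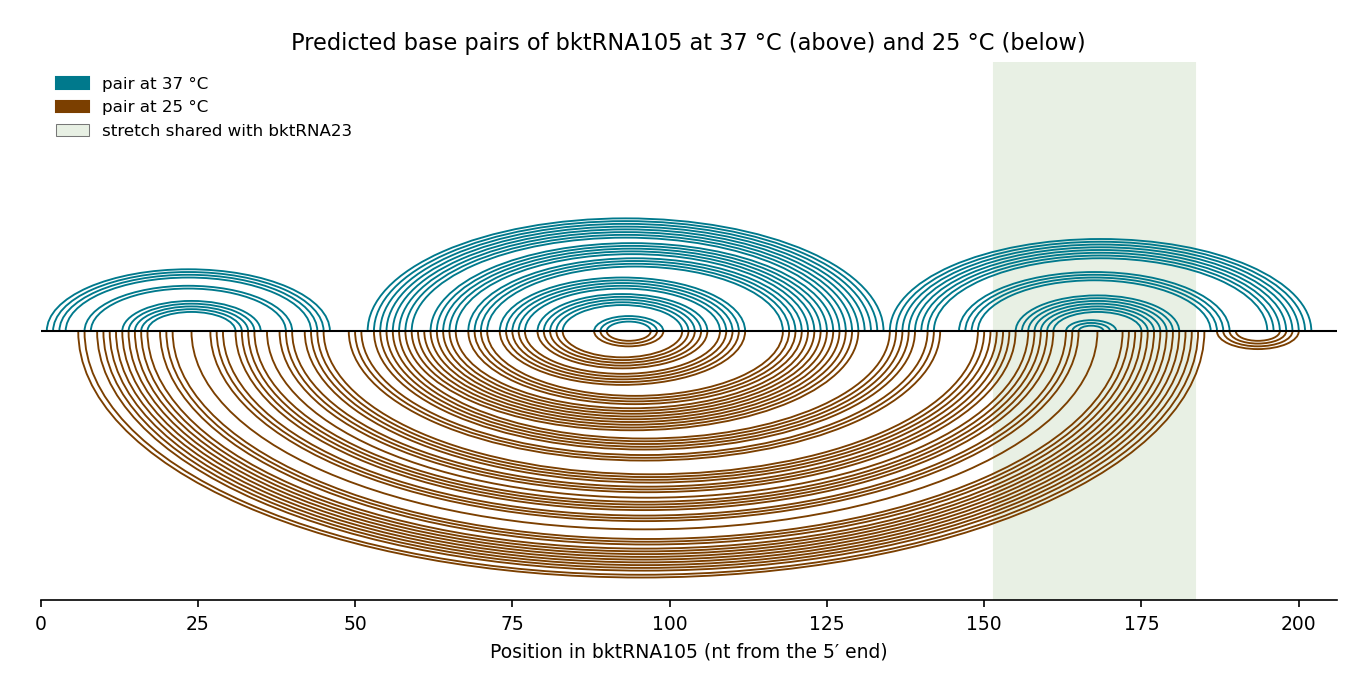
Predicted base pairs of bktRNA105 along its length in nt (x axis), each arc joining the partners of a pair, at 37 °C above the line and at 25 °C below it, with the shared stretch shaded. At 37 °C the shared stretch closes on itself, and at 25 °C 25 of its 32 nucleotides pair with nucleotides elsewhere in the RNA, while 22 of 30 pairs of the central hairpin are kept.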

How the data were processed

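The authors deposited 1 reactivity score per nucleotide, with base, strand and position, for 14 RNAs, per the file headers. How the 8 libraries were combined, whether DMSO was subtracted and what scale the score has are not given in the sources used here. The tools cutadapt 3.4 and STAR and the build hg38 are named, per the submitters' processing notes, with no roles. Scores were used as deposited. The shared stretch was the longest common run of letters, and bktRNA23 was aligned to bktRNA105 with Biopython 1.88 (match 1, mismatch -1, gap opening -2, gap extension -0.5, free end gaps). Of 2 alignments with equal score, the one that keeps the shared stretch whole was used. For box D the best match to CUGA was taken (at most 1 mismatch) in the first 20 nt and for box C the best match to RUGAUGA (at most 2 mismatches) in the last 20 nt. Structures came from ViennaRNA 2.7.2 at 37 °C. Neither bound protein nor kink-turns enter these predictions. The letters of the shared stretch are not reported here. Gene names came from RefSeq spans on GRCh38.p14. Steps were tested on simulated data. Single nucleotides were named if they lay in the shared stretch, a box or a hairpin loop, or were among the 8 highest of their RNA. Others named in the text (such as those of the central hairpin) were chosen after their values were seen. The members, lists and settings were chosen with earlier results of these data known. A test of NAI-N3 against DMSO had been planned but needs values per library, so it was not run.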

Additional observations from a re-analysis of the deposited data

How the results depend on the processing

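Over 11 results and 13 other settings, 56 of 76 values moved by less than 1 standard error over nucleotides, 15 moved further and 5 reversed. Some of these outcomes were fixed by the setting. Leaving out the end nucleotides cannot touch the shared stretch, and bktRNA23 had the same structure at 25 °C and as centroid. Division by the mean of the own RNA changes the unit, so the shared means had to move. The causes of the other changes were not tested. The shared stretch of bktRNA105 minus bktRNA23 reversed with zeros not measured (-0.000876) and after division by each RNA's mean (-0.189, from 0.801 and 0.990), so the data give it no direction. Unpaired minus paired in bktRNA23 reversed without the first 2 and last 2 nt (-7.34e-05) and with negative scores set to 0 (-0.000124). In bktRNA105 it moved to 0.00425 with boxes held unpaired and 0.00428 with the centroid structure. Hairpin loop minus other unpaired nucleotides in bktRNA105, 0.00641, reversed at 25 °C (-0.0124), where the 5′ and shared loops are gone, and was 7.45e-05 with medians. With medians the shared stretch stood at 0.00378 in bktRNA105 and 0 in bktRNA23, the box contrasts at -0.00195 (box D) and -0.00197 (box C) in bktRNA105, and both at 0 in bktRNA23. With zeros not measured the shared mean of bktRNA23 was 0.00829, and the box contrasts were -0.00990 (box C, bktRNA105), -0.0101 (box D, bktRNA23) and -0.00860 (box C, bktRNA23). The correlation across the shared stretch stayed between 0.258 and 0.401. No paired analysis was possible because the table holds no values of single libraries, so leaving out a replicate was not possible either. What depth limits could not be measured.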
